A study of Chlamydomonas reinhardtii with 9 samples.

Results

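Nuclear genes of the green alga Chlamydomonas reinhardtii that are listed without an intron were followed in 2 mutants and in wild type. The deposited count tables list, for each gene, its exon intervals. Overlapping intervals of a gene were merged into exon blocks, and a gene was taken when it had exactly 1 block and lay outside the plastome and the mitogenome. This gave 881 single-block nuclear genes among 14540 nuclear genes and 14621 genes in all. Another 79 single-block genes lay on the organelle genomes and were left out. The choice used coordinates only and no expression value.

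Expression was measured by sequencing of oligo(dT)-selected RNA in 9 libraries: 3 of the mutant crpaf1-1, 3 of the mutant crskip-1 and 3 of wild type (WT). Per the labels, all were of strain CC5325 and were harvested late in G1, the growth phase before DNA synthesis. Cultures grew at 22 °C in liquid TAP, which supplies acetate, with a light period of 14 h and a dark period of 10 h. The labels do not describe the mutations, and neither the files nor the reference table pairs a gene ID with a name, so the mutated genes were not checked in these libraries and no gene below is given a role. The molecule field of the labels reads genomic DNA while the protocol describes messenger RNA; the values were treated as expression.

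An intron is removed from a transcript by the spliceosome, so a transcript of a gene without introns reaches its mature form without that step. In animals, the replication-dependent histone genes are the textbook example of genes without introns. PAF1 is the subunit that gives its name to an elongation complex bound to transcribing RNA polymerase II. In Arabidopsis, SKIP is known as a component of the spliceosome and as a partner of that complex.

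The single-block genes were short and often had few counts. Only uniquely mapped alignments of oligo(dT)-selected RNA were counted, so few counts need not mean low expression. Their median length was 1306 bases, against 2387 bases for the 4043 nuclear genes of 2 to 5 blocks and 2920 bases for all nuclear genes. The filter on low counts kept 607 of the 881 (68.9%), against 87.2% of genes of 2 to 5 blocks and 91.5% of all nuclear genes. The 274 genes that did not pass had 0 to 92 counts each over the 9 libraries, with a median of 16, and 25 of them had none. The lack of a count limits detection at this depth (13907142 to 19725439 counts per library) and does not show that a gene is silent. A locus tag of the v5.5 reference table was found for 450 of the 881 IDs (51.1%), against 86.6% of genes of 2 to 5 blocks and 91.1% of all nuclear genes. An ID without a tag belongs to a gene model that this table does not list.

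Single-block genes also stood more often alone. Of the 881, 648 (73.6%) overlapped no other listed gene, against 53.2% of genes of 2 to 5 blocks and 50.4% of all nuclear genes. An exon overlap with a gene on the opposite strand was found for 151 (17.1%) and with a gene on the same strand for 85 (9.65%), against 35.9% and 18.4% of all nuclear genes. Because it is not given whether strand was used in counting, reads of such opposite-strand neighbours cannot be told apart. The share of single-block genes among the nuclear genes of a chromosome ran from 4.02% on chromosome 1 to 9.17% on chromosome 17 (83 of 905) and 11.6% on chromosome 15 (41 of 352). The median WT level per length was 1.95 CPM per kilobase in single-block genes, against 3.83 in genes of 2 to 5 blocks and 4.96 in all nuclear genes (CPM is the library-scaled count, normalised by the trimmed mean of M-values, TMM). Among the 607 that passed the filter it was 6.41, and the highest was 1919 CPM per kilobase.

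Each of the 607 genes was paired with a nuclear gene of 2 to 5 blocks of like length and mean CPM. Other traits were not matched: 53.2% of the 607 and 79.9% of the matched genes had a v5.5 tag. Median lengths were 1435 bases in single-block genes and 1428 bases in the matched genes, and median levels were 10.3 CPM in single-block genes and 11.0 CPM in the matched genes. A gene is called here when the Benjamini-Hochberg adjusted p of edgeR's quasi-likelihood test, fitted on all 13376 genes that passed the filter, is under 0.05. Whether replicates came from separate cultures is not stated, and the p-values then reflect only how far these libraries differ, which may be technical. In such bulk samples, fewer cells that express a gene and less RNA per cell cannot be told apart. Fold changes are on the log2 scale and run mutant over WT, or crpaf1-1 over crskip-1.

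In crpaf1-1, single-block genes were higher than in WT more often than lower. Of the 607, 231 (38.1%) were called higher and 112 (18.5%) lower, and 264 did not pass the test. Over all genes tested, 28.6% were called higher and 29.8% lower. The matched genes stood close to even, with 161 (26.5%) called higher and 146 (24.1%) lower. The median log2 fold change was 0.15 in single-block genes, 0.03 in the matched genes and 0.01 in all genes tested. Single-block genes with a v5.5 tag (323) had a median of 0.11 and those without (284) of 0.21. Their matched genes had 0.02 and 0.06. These shifts are small: the middle of the single-block distribution ran between quartiles of -0.13 and 0.44, against -0.26 and 0.32 in the matched genes.

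Large changes leaned the same way in crpaf1-1. At least 2-fold higher and called were 43 single-block genes (7.08%), against 38 matched genes (6.26%) and 2.50% of all genes tested. At least 2-fold lower and called were 16 single-block genes (2.64%), against 38 matched genes (6.26%) and 6.30% of all genes tested. Many of these were sparse: 32 of the 43 higher and 8 of the 16 lower single-block genes had a mean under 3 CPM. Of the matched genes, 25 of the 38 higher and 21 of the 38 lower were paired with genes of that class. Single-block and matched genes thus differed more in the count of large falls than in that of large rises, a difference that was not tested. CPM values of crpaf1-1 and WT did not overlap for 369 of the 607 (60.8%), with crpaf1-1 above for 247 and below for 122, and the share over all genes tested was 64.1%.

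In crskip-1, calls of single-block genes were even. Higher than in WT were 136 (22.4%), lower were 131 (21.6%), and 340 did not pass the test. Over all genes tested, 24.4% were called higher and 25.1% lower, and among the matched genes 144 (23.7%) were called in each direction. The median log2 fold change was 0.04 in single-block genes and 0.00 in the matched genes. At least 2-fold changes were called higher for 21 and lower for 27 single-block genes, against 15 and 48 matched genes; over all genes tested these calls made 1.82% and 5.06%. With library size alone in place of TMM, the split of single-block genes in crskip-1 became 81 higher and 172 lower, with medians of -0.08 in single-block genes, -0.13 in the matched genes and -0.12 in all genes tested. Values of crskip-1 and WT did not overlap for 308 of the 607 (50.7%), against 56.4% of all genes tested.

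Set directly against crskip-1, crpaf1-1 had 204 single-block genes called higher (33.6%) and 107 lower (17.6%), with 296 not passing the test. Over all genes tested, 25.7% were called higher and 28.2% lower. The matched genes had 147 (24.2%) higher and 137 (22.6%) lower. The median log2 difference was 0.14 in single-block genes and 0.03 in the matched genes. Nuclear genes of exactly 2 blocks were close to single-block genes in this comparison, with 33.6% higher, 20.9% lower and a median of 0.12. With library size alone, the split became 335 higher and 48 lower, and the median of all genes tested moved to 0.20, so this split is to be read relative to that shift. For crpaf1-1 against WT, the same scaling gave 274 higher and 80 lower with a median of all genes of 0.09. For each of the 3 comparisons the median of single-block genes less that of matched genes was the same to 2 decimals under both scalings. A change of scaling moves the log2 values of all genes of a library nearly alike. That sameness therefore follows from the scaling and is no support for the difference. At least 2-fold higher and called were 43 single-block genes (7.08%) and 52 matched genes, at least 2-fold lower 9 (1.48%) and 17, against 3.98% and 2.98% of all genes tested. Values of crpaf1-1 and crskip-1 did not overlap for 342 of the 607 (56.3%), against 59.3% of all genes tested. The comparisons share libraries, so their counts are not independent of each other.

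**Figure D1:**
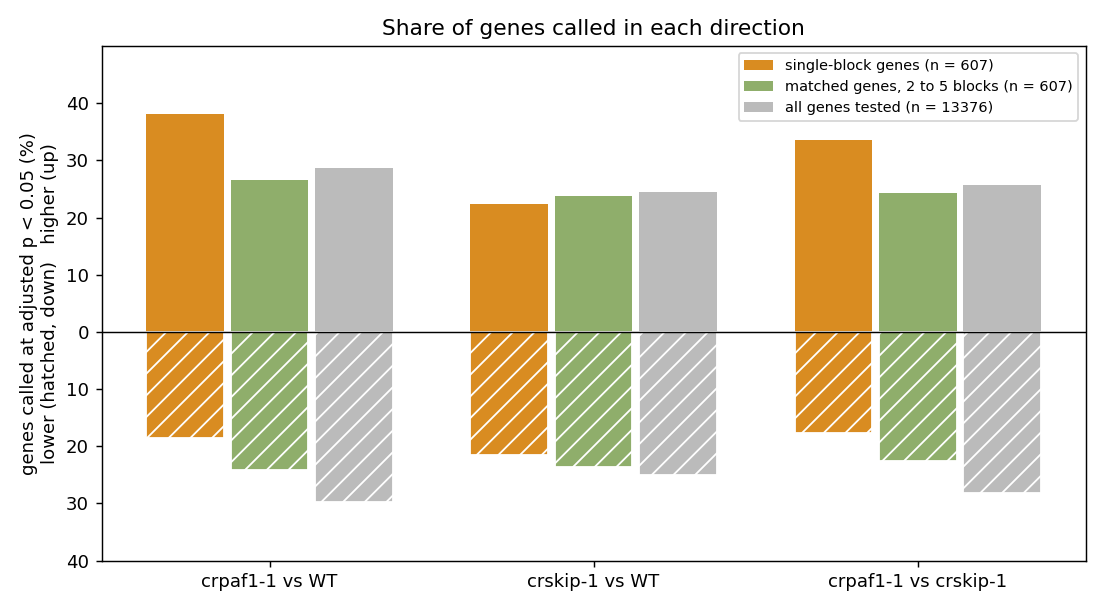
Share of genes (%) called higher (solid bars, upward) or lower (hatched bars, downward) at an adjusted p under 0.05 in each of 3 comparisons, for 607 single-block genes, their 607 matched genes of 2 to 5 blocks and all 13376 genes tested. In crpaf1-1 vs WT, 38.1% of single-block genes were higher and 18.5% lower, while in crskip-1 vs WT the bars of single-block genes are near even at 22.4% and 21.6%.

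In crpaf1-1 against WT, the median shift was smaller in genes of 2 blocks and near 0 beyond. The median log2 fold change was 0.15 in genes of 1 block, 0.08 in the 732 tested nuclear genes of 2 blocks, and 0.02 in genes of 3, of 4 and of 5 blocks. The share called higher was 38.1% at 1 block, 30.3% at 2 blocks and 28.7% at 3 blocks, and the share called lower was 18.5%, 22.5% and 27.9% in the same series. In crskip-1 no such series was seen, with medians of 0.04, -0.02, -0.03, -0.01 and 0.02 at 1 to 5 blocks. Between crpaf1-1 and crskip-1 the medians were 0.14, 0.12, 0.03, 0.02 and -0.03 in the same series. Matching single-block genes to genes of exactly 2 blocks left a difference of medians of 0.07 in crpaf1-1 against WT and of 0.06 in crpaf1-1 against crskip-1, while matching to genes of 2 to 5 blocks gave 0.12 in both.

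Pair by pair, the single-block gene lay above its matched gene in 355 of 607 pairs (58.5%) in crpaf1-1 against WT, with a median difference of 0.13. In crskip-1 against WT it lay above in 336 pairs (55.4%), with a median difference of 0.07. In crpaf1-1 against crskip-1 it lay above in 338 pairs (55.7%), with a median difference of 0.07, below the difference of medians of 0.12. Against WT, the differences of medians, 0.12 in crpaf1-1 and 0.05 in crskip-1, became 0.05 and -0.01 with no filter on low counts, and the first became 0.08 when genes were matched on WT level. Medians of single-block genes on single chromosomes lay above 0 for all 17 chromosomes in crpaf1-1, between 0.01 on chromosome 11 and 0.35 on chromosome 13, and above the median of genes of 2 to 5 blocks on the same chromosome for all 17. In crskip-1 the chromosome medians ran from -0.08 on chromosome 9 to 0.15 on chromosome 15, and 12 of 17 lay above those of genes of 2 to 5 blocks.

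The crpaf1-1 libraries lay apart from those of crskip-1 and WT. For each library, the deviation of every gene from its own mean over the 9 libraries was taken, and the median over matched genes was subtracted from that over single-block genes. The crpaf1-1 libraries had 0.109, 0.044 and 0.075, the crskip-1 libraries -0.042, 0.009 and -0.035, and the WT libraries -0.007, -0.068 and -0.040 on the log2 scale. All 3 crpaf1-1 values lay above all others, while crskip-1 and WT overlapped. Group means were 0.076 ± 0.033 in crpaf1-1, -0.023 ± 0.028 in crskip-1 and -0.038 ± 0.030 in WT (SD, n = 3 libraries each). Leaving out WT replicate 2, the lowest of all 9, brought the difference of medians of crpaf1-1 against WT to 0.08. Replicate 1 of every group came from sequencing lane 3 and the others from lane 2. Within lane 2 alone, 193 single-block genes were higher and 92 lower in crpaf1-1 than in WT, and 133 were higher and 96 lower in crskip-1 than in WT.

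Summed counts, which weigh abundant genes more, set all 3 groups apart. No such share was taken for matched genes, so the separation is not shown to be particular to single-block genes. At 50 CPM or more in crskip-1, the median log2 fold change was 0.10 in single-block genes and 0.11 in their matched genes. In crpaf1-1 these medians were 0.05 and 0.00. The 881 genes took 3.64%, 3.57% and 3.58% of nuclear counts in crpaf1-1, 3.34%, 3.40% and 3.34% in crskip-1, and 3.28%, 3.21% and 3.14% in WT. Means were 3.60 ± 0.0403% in crpaf1-1, 3.36 ± 0.0321% in crskip-1 and 3.21 ± 0.0685% in WT (SD, n = 3 libraries each), and the 95% Wilson interval of a single library was narrow, for crpaf1-1 replicate 2 at 3.56% to 3.58%, which covers counting error only. The 274 genes below the filter went another way: they summed to 44.0, 36.3 and 42.7 CPM of library total in crpaf1-1, 30.8, 27.3 and 28.4 in crskip-1, and 48.6, 37.4 and 39.2 in WT, so that the crskip-1 libraries were the lowest and crpaf1-1 overlapped WT.

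**Figure D2:**
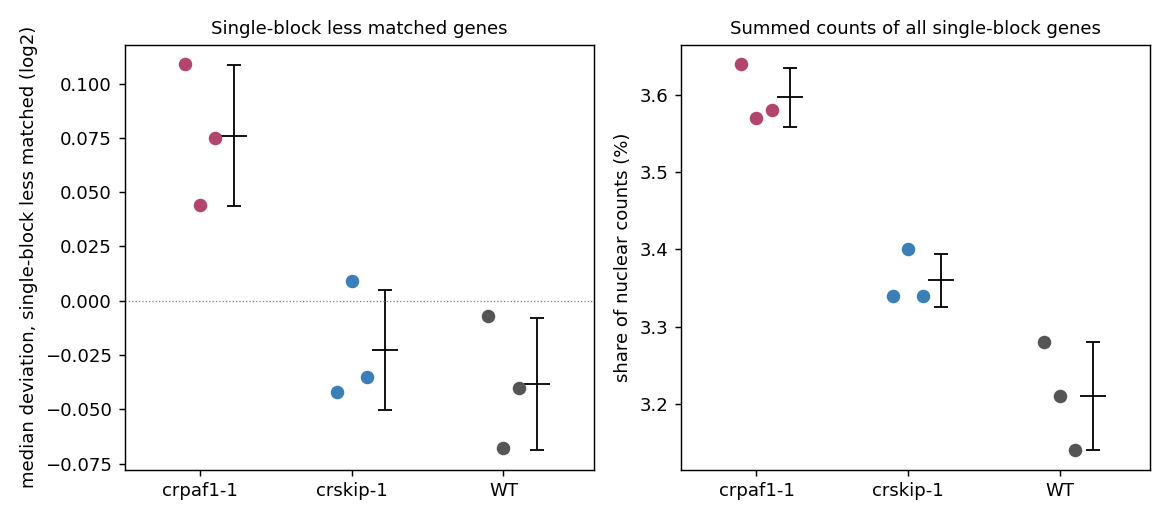
Left, the median deviation (log2) of single-block genes less that of matched genes in each library; right, the share (%) of nuclear counts in the 881 single-block genes. Points are libraries and bars give mean and SD over 3 libraries; the crpaf1-1 points lie above all others in both panels, at 0.044 to 0.109 and at 3.57% to 3.64%.

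By length, the rise in crpaf1-1 was most frequent among the shortest genes. Of 188 single-block genes under 1000 bases, 47.3% were called higher and 11.7% lower, and the median log2 change was 0.24, against 28.7% higher, 16.0% lower and a median of 0.07 in their matched genes. Of 223 genes of 1000 to under 2000 bases, 35.4% were higher and 23.8% lower, with medians of 0.07 and of 0.04 in the matched genes. Of 196 genes of 2000 bases or more, 32.1% were higher and 18.9% lower, with a median of 0.15 and of 0.00 in the matched genes, which had 31.1% lower. The medians therefore did not follow length in a single direction.

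By level, the medians in crpaf1-1 were wider apart among sparse genes. The level classes here and below use the mean over all 9 libraries, mutants included, among genes that passed the filter. A sparse gene could thus enter through its mutant values alone. Over all levels, the difference of medians in crpaf1-1 was 0.12, but 0.05 with no filter and 0.08 when matched on WT level. The 148 single-block genes with a mean under 3 CPM had a median log2 fold change of 0.41, against 0.15 in their matched genes. In single-block genes the median was 0.18 at 3 to 10 CPM, 0.13 at 10 to 50 CPM and 0.05 at 50 CPM or more, against 0.01, 0.04 and 0.00 in their matched genes. Calls did not fade in the same way: at 50 CPM or more, 38.3% of 107 single-block genes were called higher and 28.0% lower, against 21.5% and 31.8% of matched genes.

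Level also ordered the changes in crskip-1, in single-block and matched genes alike. Under 3 CPM, 9.46% of single-block genes were called higher and 19.6% lower, against 5.41% and 30.4% of matched genes. At 50 CPM or more, 44.9% were called higher and 16.8% lower, against 47.7% and 15.0% of matched genes. The 4 genes with the highest WT level per kilobase belong to this upper class.

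The nearest gene upstream was looked at by strand and distance. For 62 tested single-block genes, the upstream neighbour lay 1 to 500 bases away on the opposite strand. The starts of both genes then border the same short gap, and the genes run away from it in opposite directions. In crpaf1-1, 38 of these 62 (61.3%) were called higher than in WT and 9 (14.5%) lower; the median log2 change was 0.22. Their matched genes had 30.6% higher and 29.0% lower, and the 589 genes of 2 to 5 blocks in the same arrangement had 36.0% higher and 20.5% lower with a median of 0.10. With the upstream neighbour on the same strand within 500 bases, 34.9% of 106 single-block genes were higher and 14.2% lower, against 24.9% and 29.8% of 453 genes of 2 to 5 blocks. In crskip-1, 22 of the 62 genes (35.5%) were called higher and 14 (22.6%) lower, against 18 and 13 of their matched genes and 28.7% and 23.9% of the 589 genes of 2 to 5 blocks. Bounds of length, level and distance were chosen with the data known, and the differences between classes were not tested.

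**Figure D3:**
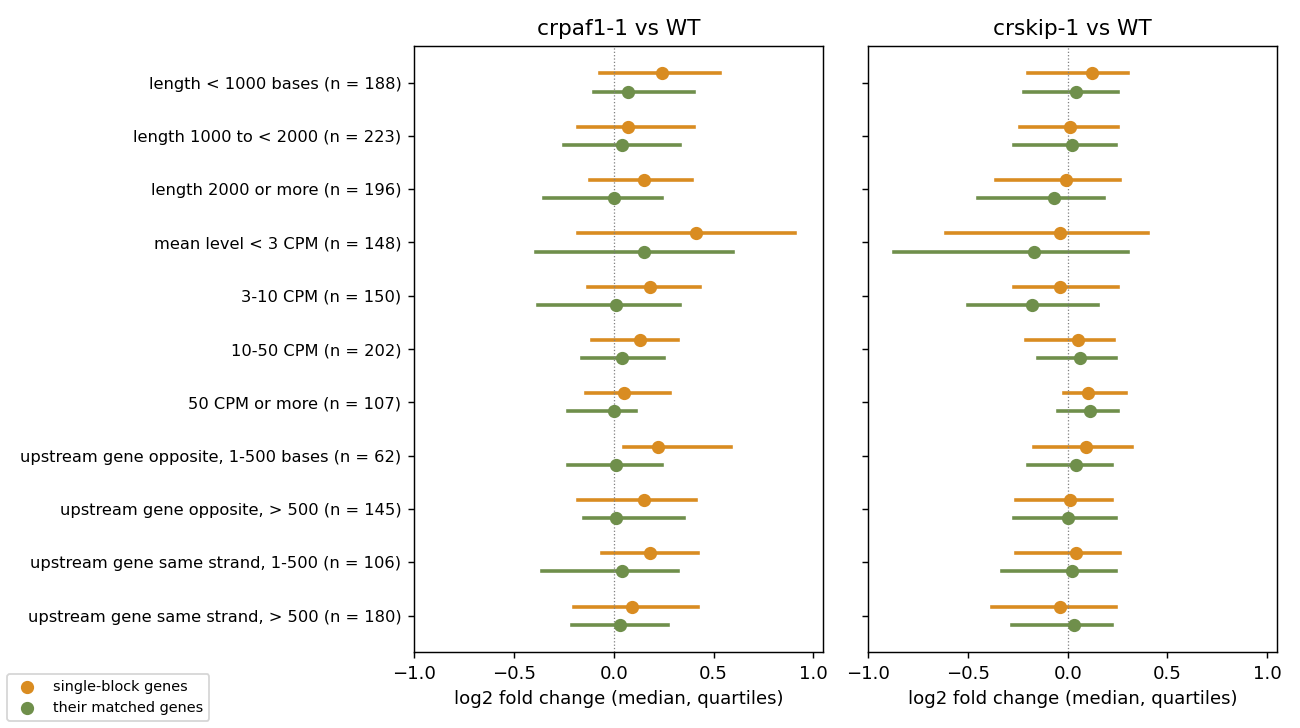
Median log2 fold change (points) with quartiles (lines) of single-block genes and of their matched genes by length, mean level and upstream neighbour, in crpaf1-1 vs WT (left) and crskip-1 vs WT (right). In crpaf1-1 the single-block median lies right of its matched median in each of the 11 classes, most at under 3 CPM (0.41 against 0.15); in crskip-1 the points of most classes lie near 0.

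Single-block genes and a close upstream neighbour were compared by the direction of their changes, first on the same strand. Of 100 such pairs with a gap of 1 to 500 bases in which both genes were tested, both were called in crpaf1-1 against WT in 31, and in 24 of these (77.4%) in the same direction. In crskip-1 both were called in 19, of which 17 in the same direction. The Spearman correlation of the fold changes over these pairs was 0.31 in crpaf1-1 and 0.40 in crskip-1. At a gap over 500 bases (164 pairs) it was 0.01 and 0.25, with 25 of 46 and 25 of 40 pairs in the same direction. Where spans touched or overlapped (85 pairs), the correlation reached 0.63 in crpaf1-1 and 0.50 in crskip-1, with 25 of 26 and 17 of 19 in the same direction. Over 58 pairs on opposite strands at 1 to 500 bases, the correlation reached 0.36 for crpaf1-1 and 0.26 for crskip-1, with 19 of 29 and 15 of 19 in the same direction, so the crpaf1-1 correlation was not lower than on the same strand. Among genes of 2 to 5 blocks with a same-strand neighbour at 1 to 500 bases (421 pairs), the correlation was 0.10 in crpaf1-1 and 0.22 in crskip-1. Of their pairs called in both genes, 56.1% and 68.1% went in the same direction. At a same-strand gap over 500 bases (804 pairs) the correlations were 0.11 and 0.11, with 53.4% and 60.1%. Where their same-strand spans touched or overlapped (364 pairs) they were 0.04 and 0.08, with 49.2% and 51.6%. On opposite strands at 1 to 500 bases (565 pairs) they were 0.16 and 0.09, with 58.8% and 59.4%. These differences were not tested. The pairs are pairs of genes in the same 9 libraries, reads near a shared boundary may fall to either gene, and the correlations are descriptions.

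Of the 607 genes, 25 were named by a rule: called, with no overlap between the groups compared and a mean of at least 2 CPM, the 6 highest and 6 lowest in each mutant and the 3 highest and 3 lowest between the mutants, and the 4 of highest WT level per kilobase. All are given by the ID of the files without its shared ending _4532.v6.1. Coordinates are those of the deposited files, 1-based.

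Cre13.g801584 was near 0 in WT and rose in both mutants. It lies on chromosome 13 (5064977 to 5066137, minus strand), is 1161 bases long, has no v5.5 tag and overlaps no exon of another gene. It had 3.33, 2.91 and 3.44 CPM in crpaf1-1, 8.71, 9.90 and 9.72 in crskip-1, and 0.0578, 0.145 and 0.183 in WT. All crskip-1 libraries lay above all crpaf1-1 libraries and these above all of WT. WT held 6 counts in all, crpaf1-1 188 and crskip-1 401, which as shares of library totals gave ratios to WT of 25.6 (95% counting interval 11.5 to 70.6) in crpaf1-1 and 74.7 (34.0 to 205) in crskip-1. Its nearest upstream gene lies 4749 bases away and did not pass the filter.

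Cre17.g722675 moved in opposite directions in the mutants. It lies on chromosome 17 (3330814 to 3333118, plus strand) and had 14.0, 12.2 and 12.4 CPM in crpaf1-1, 0.0675, 0 and 0.313 in crskip-1, and 1.44, 1.01 and 1.10 in WT. The groups did not overlap. Against WT its log2 fold change was 3.42 ± 0.19 (SE) in crpaf1-1, with an edgeR adjusted p of 8.8e-11, and -3.27 ± 0.51 in crskip-1, with an edgeR adjusted p of 4.3e-05. The crskip-1 value rests on few counts: it was -4.88 without crskip-1 replicate 3 and -2.67 without crskip-1 replicate 2. It had 753 counts in crpaf1-1 and 5 in crskip-1, against 57 in WT, so crpaf1-1 exceeded crskip-1 by a ratio of 110 (95% counting interval 46.9 to 340). Its exon overlaps Cre17.g722650 on the opposite strand, which makes its value uncertain; that gene changed by 0.34 in crpaf1-1 (edgeR adjusted p = 0.00011) and by -0.11 in crskip-1 (adjusted p = 0.16).

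A further 4 genes made up the top of crpaf1-1. Cre01.g800098 (chromosome 1) had 9.47, 7.47 and 7.78 CPM in crpaf1-1, against 1.50, 1.23 and 1.34 in WT, a log2 fold change of 2.59 ± 0.18 (edgeR adjusted p = 1.8e-09); it overlaps Cre01.g040500 on the opposite strand, which rose by 0.25. Cre04.g214600 (chromosome 4), whose nearest upstream gene lies 32908 bases away, had 3.66, 2.91 and 5.89 CPM in crpaf1-1, against 0.982, 0.868 and 0.976 in WT. Its log2 fold change was 2.12 ± 0.28 in crpaf1-1, and 0.78 ± 0.35 in crskip-1, where it did not pass (edgeR adjusted p = 0.074) but did without crskip-1 replicate 2 (0.96), without crpaf1-1 replicate 3 (0.77), in a fit of the 2 groups alone (0.77) and with the replicate number as a block (0.81). Cre07.g800794 (chromosome 7, 550 bases) rose in both mutants, by 2.11 ± 0.24 in crpaf1-1 and 1.12 ± 0.28 in crskip-1. Cre12.g801469 (chromosome 12, 643 bases) likewise rose by 1.52 ± 0.22 and by 1.28 ± 0.24. Cre12.g801469 begins at the base after the end of Cre12.g552950 on the same strand, which rose by 0.87 in crpaf1-1 and 0.81 in crskip-1.

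At the lower end in crpaf1-1, Cre15.g801692 on chromosome 15 (745186 to 745801, plus strand) had 7.08, 5.03 and 6.39 CPM in crpaf1-1, 20.7, 22.8 and 22.8 in crskip-1, and 29.6, 29.1 and 27.9 in WT. The 3 groups stood apart, with crpaf1-1 far below the others. The log2 fold change was -2.22 ± 0.10 in crpaf1-1 and -0.38 ± 0.08 in crskip-1. Its upstream neighbour Cre15.g801691, a gene of 18 blocks that ends 266 bases before it on the same strand, changed by -2.10 and -0.31.

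Cre12.g801391 on chromosome 12 (3332364 to 3333806, plus strand) had 4.27, 5.09 and 6.16 CPM in crpaf1-1, 2.90, 2.41 and 1.49 in crskip-1, and 23.6, 25.4 and 19.2 in WT. The log2 fold change was -2.14 ± 0.14 in crpaf1-1 and -3.30 ± 0.18 in crskip-1, and the mutants did not overlap each other. Its same-strand upstream neighbour Cre12.g498650, 23 bases away and of 5 blocks, fell by 2.12 and 2.94 in the same mutants.

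The other named genes lower in crpaf1-1 were also lower in crskip-1. Cre03.g176150 fell by 1.63 in crpaf1-1 and 1.70 in crskip-1, while Cre03.g176200, which overlaps it on the opposite strand, changed by -0.44 and 0.53. Cre02.g800265 fell by 1.10 and 1.11, and its opposite-strand overlap partner Cre02.g800264 fell by 1.11 and 1.43. Cre06.g251750 had 26.9, 27.8 and 26.5 CPM in crpaf1-1, 34.0, 35.8 and 28.1 in crskip-1, and 60.5, 54.1 and 51.9 in WT, with all mutant libraries below all WT libraries; it overlaps Cre06.g251800 on the opposite strand, which did not pass in either mutant. Cre01.g033900 fell by 1.04 in crpaf1-1 and by 0.60 in crskip-1, the last no longer called without crskip-1 replicate 1 (-0.45), without crskip-1 replicate 2 (-0.57), without WT replicate 1 (-0.36), in lane 2 alone (-0.21) or by DESeq2 (-0.59).

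**Figure D4:**
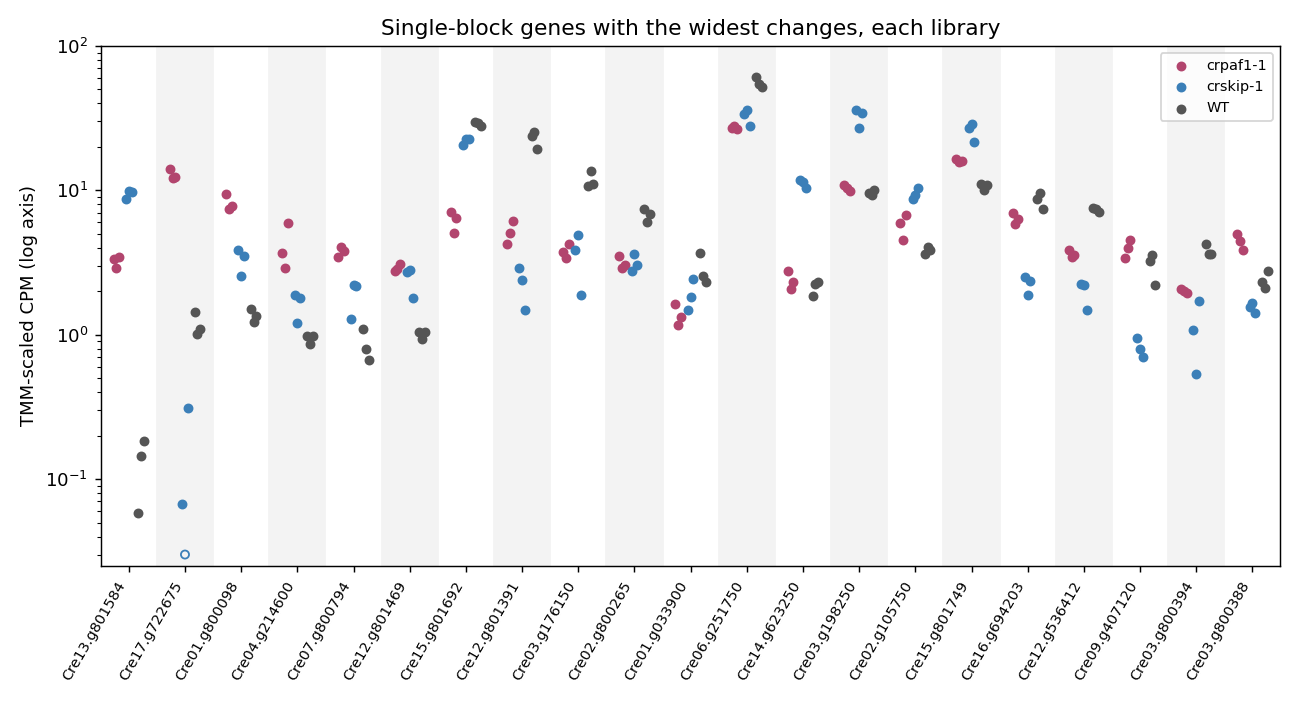
Level (TMM-scaled CPM, log axis) of the 21 named genes with the widest changes, in each of the 9 libraries, with groups side by side in the order crpaf1-1, crskip-1, WT. The open point at the foot of the axis is the crskip-1 library with 0 counts of Cre17.g722675; Cre13.g801584 and Cre17.g722675 show the widest gaps between groups.

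Cre14.g623250 and Cre03.g198250 changed in crskip-1 and not past the test in crpaf1-1, and the mutants differed in both. Cre14.g623250 on chromosome 14 (2382748 to 2385580, minus strand) had 2.77, 2.07 and 2.33 CPM in crpaf1-1, 11.8, 11.4 and 10.3 in crskip-1, and 1.85, 2.24 and 2.32 in WT. Every crskip-1 library lay above every other, and crpaf1-1 and WT overlapped. Its log2 fold change was 2.39 ± 0.15 in crskip-1 and 0.17 ± 0.18 in crpaf1-1 (edgeR adjusted p = 0.42), and the direct difference of crpaf1-1 less crskip-1 was -2.22 ± 0.14 (edgeR adjusted p = 6.7e-10). The same-strand gene 151 bases upstream, Cre14.g623300 of 17 blocks, rose by 0.37 in crskip-1 and by 0.45 in crpaf1-1, so this pair did not share the size of its changes.

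Cre03.g198250 on chromosome 3 had 10.9, 10.4 and 9.83 CPM in crpaf1-1, 35.8, 27.2 and 34.2 in crskip-1, and 9.65, 9.33 and 10.1 in WT, a rise of 1.74 ± 0.10 in crskip-1 and 0.10 ± 0.11 in crpaf1-1 (edgeR adjusted p = 0.45). It overlaps another single-block gene on the same strand, Cre03.g800372, which was below the filter. Cre02.g105750 and Cre15.g801749 rose in both mutants, by 1.29 and 1.28 in crskip-1 and by 0.58 each in crpaf1-1.

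Among those lower in crskip-1, Cre09.g407120 had 3.38, 3.97 and 4.55 CPM in crpaf1-1, 0.945, 0.802 and 0.705 in crskip-1, and 3.24, 3.54 and 2.20 in WT. It fell by 1.84 ± 0.26 in crskip-1; in crpaf1-1 its fold change of 0.41 ± 0.18 did not pass (edgeR adjusted p = 0.068) but did without crpaf1-1 replicate 1 (0.51), without WT replicate 2 (0.53), in lane 2 alone (0.59) and with library size alone (0.49). Cre16.g694203 fell by 1.92 ± 0.16 in crskip-1 and by 0.41 ± 0.12 in crpaf1-1. Cre12.g536412 fell by 1.88 in crskip-1 and by 1.02 in crpaf1-1. Exons of Cre12.g536425 overlap it on the same strand, and that gene fell by 1.59 in crskip-1 and by 0.85 in crpaf1-1. Cre03.g800394, at 8603 bases, overlaps Cre03.g202650 on the opposite strand, which was below the filter. It fell by 1.81 in crskip-1 and by 0.93 in crpaf1-1, and the difference between the mutants (0.88) was not called without crskip-1 replicate 2 (0.54) or in lane 2 alone (0.86).

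Cre03.g800388 on chromosome 3 (7387347 to 7388412, plus strand) moved apart in the mutants, with 5.02, 4.45 and 3.89 CPM in crpaf1-1, 1.55, 1.67 and 1.41 in crskip-1, and 2.31, 2.10 and 2.74 in WT. It rose by 0.90 ± 0.17 in crpaf1-1 and fell by 0.62 ± 0.21 in crskip-1, the last not called without crskip-1 replicate 3 (-0.57), without WT replicate 3 (-0.52), in lane 2 alone (-0.66) or by DESeq2 (-0.63). The same-strand gene 148 bases upstream, Cre03.g206250 of 9 blocks, changed by 0.54 in crpaf1-1 and -0.80 in crskip-1.

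The 4 single-block genes of highest WT level per kilobase were all higher in crskip-1 than in WT, by small amounts. Cre07.g357850 (778 bases) had 1633, 1676 and 1767 CPM in crpaf1-1, 1807, 2136 and 2149 in crskip-1, and 1422, 1602 and 1455 in WT. Log2 fold changes in crskip-1 were 0.44 ± 0.06 for Cre07.g357850, 0.34 ± 0.04 for Cre10.g459250, 0.29 ± 0.04 for Cre05.g238332 and 0.35 ± 0.06 for Cre08.g382500. Their matched genes of 2 to 5 blocks rose alike in crskip-1, by 0.28, 0.40, 0.35 and 0.49 in the same order. In crpaf1-1, Cre07.g357850 and Cre10.g459250 rose by 0.18 each, the first not called without crpaf1-1 replicate 3 (0.14), WT replicate 1 (0.14) or WT replicate 3 (0.16), while Cre05.g238332 at -0.04 and Cre08.g382500 at -0.02 did not pass.

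Of the 881 genes, 9 lay inside an intron of another gene, 6 on its strand and 3 on the other, out of 14 such genes in the whole nuclear list. Cre10.g436050, on the opposite strand of its host, had 655 ± 7.31 CPM in crpaf1-1, 742 ± 22.6 in crskip-1 and 598 ± 14.2 in WT (SD, n = 3 libraries each), a change of 0.13 ± 0.04 and 0.31 ± 0.04. The host Cre10.g436000 fell by 1.80 ± 0.07 in crpaf1-1 and by 1.29 ± 0.07 in crskip-1. Cre02.g800148, on the strand of its host, rose by 1.03 ± 0.11 in crpaf1-1 (edgeR adjusted p = 2.8e-07) with the host at 0.15 ± 0.06. Cre05.g800556 fell by 1.65 ± 0.42 in crskip-1 (edgeR adjusted p = 0.0036) with its host at -0.18 ± 0.29, which did not pass. In crpaf1-1 Cre05.g800556 and its host changed alike, at 0.37 ± 0.29 and 0.35 ± 0.26, and neither passed. The gene inside and the gene around it thus differed in size or direction of change in these 3 cases, in crpaf1-1, crskip-1 or both. The cases were picked from the 9 after their values were seen, and gene and host were not tested against each other.

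Single-block genes also lay next to each other. There were 33 runs of at least 3 adjacent single-block genes, with 121 genes. In 10 of these runs at least 4 genes alternated strictly in strand, 43 genes in all with a median length of 545 bases. They lay on chromosome 6 (3 runs, 12 genes), chromosome 12 (2 runs, 10 genes) and chromosome 17 (5 runs, 21 genes). The longest, on chromosome 12 at 2720879 to 2731306, held 6 genes of 455 to 618 bases. Only 2 of the 43 genes passed the filter. Of all 274 single-block genes below the filter, 76 (27.7%) had their upstream neighbour 1 to 500 bases away on the opposite strand, against 62 (10.2%) of the 607 that passed.

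The 41 genes of these runs that were below the filter were lower in both mutants than in WT when summed. They had 2.84, 2.86 and 3.73 CPM of library total in crpaf1-1, 4.60, 4.71 and 2.66 in crskip-1, and 11.4, 10.4 and 8.82 in WT. All mutant libraries lay below all WT libraries, while the mutants overlapped each other; scaled by TMM, the mutants had 2.63 to 5.08 CPM and WT 8.72 to 11.0. Means over 3 libraries were 3.14 ± 0.510 CPM for crpaf1-1, 3.99 ± 1.15 for crskip-1 and 10.2 ± 1.28 for WT (SD, n = 3 libraries each), from 170, 186 and 480 counts and with at most 17 counts of a gene in a library. Gene by gene, 39 of the 41 were below WT in crpaf1-1 and 35 in crskip-1. No such count was taken for the other single-block genes below the filter, so these counts have no background share. The genes share the same 9 libraries and few counts, so the counts by gene add no separate support to the sums. All 274 of them, these 41 included, also summed lower in crskip-1 (27.3 to 30.8 CPM) than in WT (37.4 to 48.6). A fall in crskip-1 is thus not shown to be particular to these runs, but its size differed. Mean sums in crskip-1 and WT were 28.8 and 41.7 CPM for the 274, against 3.99 and 10.2 CPM for the 41. This difference in size was not tested. In crpaf1-1 the sum of the 274 (36.3 to 44.0 CPM) overlapped WT. For all 43 genes of the runs, with the 2 that passed the filter, the sums were 11.5 ± 0.953 CPM for crpaf1-1, 11.0 ± 1.62 for crskip-1 and 19.1 ± 2.75 for WT. The libraries were selected for polyadenylated RNA, so transcripts without such a tail would not be counted, and the part of such transcripts in these sums was not tested. The runs were picked by coordinates after earlier results were known, and the sums are given without a test.

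**Figure D5:**
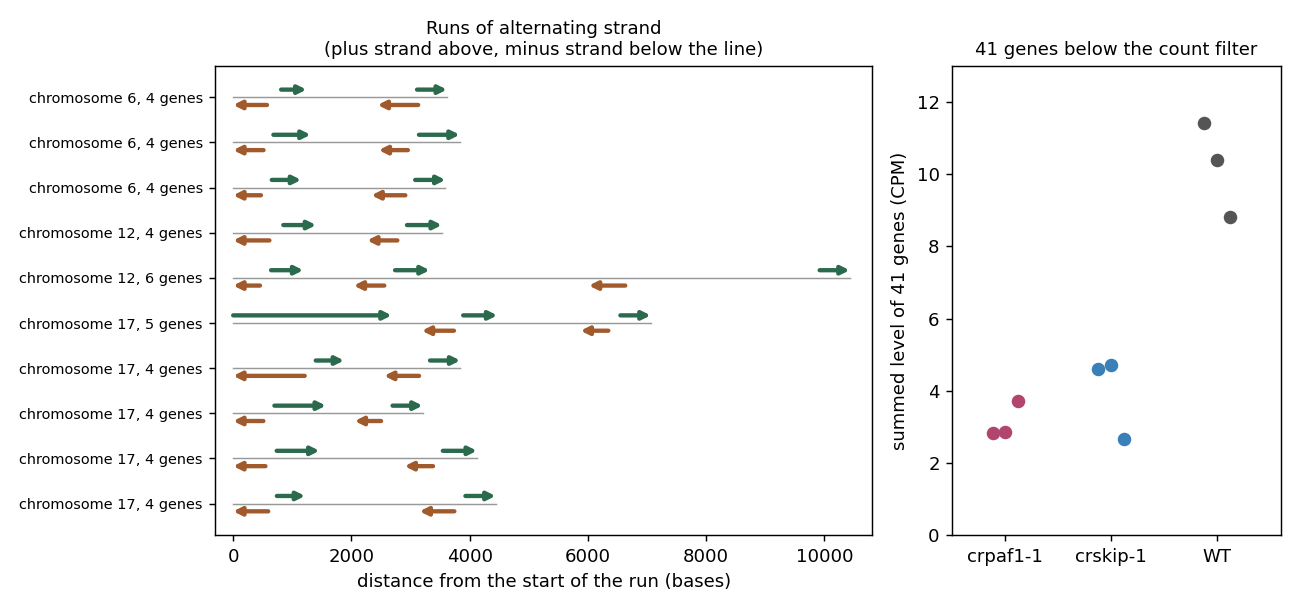
Left, the 10 runs of at least 4 adjacent single-block genes of alternating strand, drawn to scale by distance (bases) from the start of each run, with plus-strand genes above and minus-strand genes below the line. Right, the summed level (CPM of library total) of the 41 genes of these runs below the count filter, by library: 2.66 to 4.71 in the mutants and 8.82 to 11.4 in WT.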

How the data were processed

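For each library, the authors deposited raw counts of 14621 genes with exon intervals, strand and length. Bowtie2 and featureCounts are the tools in the submitters' processing notes, without versions; per the file headers, alignments were uniquely mapped and duplicates removed. Reads are not split over introns by Bowtie2, so reads over junctions may be missing from genes with introns and not from single-block genes. A fold change compares a gene with itself, but is free of such a loss only where the loss was alike in both groups. Whether the loss was alike was not tested. Levels, which the matching used, do not compare a gene with itself. Duplicate removal lowers high counts most. The sources used here give neither the strand setting nor the counted unit (read or fragment). In the file headers, replicate 1 of each group is from lane 3 and replicates 2 and 3 from lane 2.

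Counts were analysed with edgeR 4.0.16 in R 4.3.3 (TMM, default expression filter, quasi-likelihood test, all 9 libraries in 1 fit, Benjamini-Hochberg over 13376 genes), with DESeq2 1.42.0 as an alternative and SciPy 1.17.1 for matching. Single-block genes were paired 1 to 1 with nuclear genes of 2 to 5 blocks by the smallest summed squared distance in standardized log2 length and log2 of mean CPM plus 0.5; the median distance was 0.0407 SD and 485 of 607 pairs lay within 0.25 SD. For all 14621 genes the merged blocks summed to the deposited length. The fit and the matching were tested on simulated data. Replicates of a group correlated at 0.993 to 0.995 and differed beyond sampling noise. The members, classes and lists were chosen with earlier results of these data known. Named genes followed a fixed rule given with them; no test was run over the genes as a set. No sequence is shown, since no genome or sequence table was used here.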

Additional observations from a re-analysis of the deposited data

Results flagged for a closer look

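For 21 of the 25 named genes, the difference between the mutants' changes was itself past the threshold in edgeR's quasi-likelihood test of crpaf1-1 against crskip-1, adjusted over all 13376 genes. Over all of these, 25.7% were called higher and 28.2% lower in this comparison. Some of the genes were named for it. The rest, apart from the abundant ones, were named for extreme changes against WT in the same libraries. The choice itself thus made such differences likelier, and the count of 21 is no separate support. Differences are given as log2 of crpaf1-1 over crskip-1.

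Among genes that differed in direction, Cre17.g722675 stood at 6.69 (6.09 without crskip-1 replicate 2 and 8.30 without crskip-1 replicate 3) and Cre03.g800388 at 1.52. Above 0 were also Cre09.g407120 (2.25), Cre16.g694203 (1.51), Cre04.g214600 (1.34), Cre01.g800098 (1.32), Cre12.g801391 (1.16), Cre07.g800794 (0.99), Cre03.g800394 (0.88) and Cre12.g536412 (0.86). Cre03.g800394 was not called without crskip-1 replicate 2 (0.54) or in lane 2 alone (0.86).

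Below 0 were Cre14.g623250 (-2.22), Cre15.g801692 (-1.83), Cre03.g198250 (-1.64), Cre13.g801584 (-1.54), Cre02.g105750 (-0.71), Cre15.g801749 (-0.69) and Cre06.g251750 (-0.28). The last was not called without crskip-1 replicate 2 (-0.21), in lane 2 alone (-0.24) or with library size alone (-0.07). The 4 abundant genes differed less in size, with Cre08.g382500 at -0.38, Cre05.g238332 at -0.33, Cre07.g357850 at -0.26 (-0.06 and not called with library size alone) and Cre10.g459250 at -0.15, which became 0.05 with library size alone.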

How the results depend on the processing

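The median of single-block genes less that of matched genes was 0.12 in crpaf1-1 against WT, 0.05 in crskip-1 against WT and 0.12 in crpaf1-1 against crskip-1. With no filter on low counts, which adds genes of few counts, these became 0.05, -0.01 and 0.05. Matched to genes of 2 blocks, crpaf1-1 against WT gave 0.07 and crpaf1-1 against crskip-1 gave 0.06; matched on WT level, crpaf1-1 against WT gave 0.08. The cause of these moves was not tested. Leaving out 1 library at a time gave 0.08 to 0.12, 0.02 to 0.05 and 0.09 to 0.13 in the 3 comparisons, with the lowest of the first without WT replicate 2. Counts of calls without 1 library ran from 191 to 237 higher and 94 to 111 lower in crpaf1-1, from 110 to 133 higher and 100 to 134 lower in crskip-1, and from 178 to 213 higher and 89 to 110 lower between the mutants. With library size alone, 81 genes were higher in crskip-1 (136 with TMM), and 335 were higher and 48 lower in crpaf1-1 against crskip-1 (204 and 107). That scaling also turned Cre10.g459250 between the mutants to 0.05, from -0.15 with TMM. Of the alternatives for named genes, 1172 values kept direction and side of the threshold, 18 lost the call, 9 gained it and 1 reversed. Within lane 2 alone, the differences of medians were 0.13, 0.05 and 0.09. Restricting to pairs within 0.25 SD, an alternative chosen after seeing the data, gave 0.12, 0.04 and 0.14.

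Same-numbered libraries share a number, and those numbered 1 also share lane 3, while numbers 2 and 3 share lane 2. Deviations from the group means correlated at 0.123 to 0.255 between libraries numbered 1 and at -0.045 to 0.128 between those numbered 2 or 3, so the numbers were not taken as pairs. A library correlated best with its own number in 12 of 18 looks at another group, 6 of 6 for number 1. With the replicate number as a block, 240 single-block genes were higher and 116 lower in crpaf1-1, 148 and 140 in crskip-1, and 213 and 111 between the mutants, with differences of medians of 0.12, 0.05 and 0.12. The planned looks at promoter motifs, GC content, protein length and product names were not run. Genes below the filter, 274 of 881, could not be tested at this depth.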
